A study of Rattus norvegicus with 35 samples.

Results

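Glucocorticoid-responsive genes were followed across the lungs of 35 rats given carbon nanotubes or vehicle. The set holds 7 genes, Nr3c1, Fkbp5, Zbtb16, Tsc22d3, Sgk1, Dusp1 and Fam107a, of 24473 genes tested. Its members were chosen by name, with the fall of Zbtb16 and Fam107a under Mitsui-7 in these same arrays in view, so the Mitsui-7 differences from control are given as descriptions with no p-value. All 7 genes were found on the array, through 11 of its 45598 non-control probes: 3 each for Zbtb16 and Nr3c1 and 1 for each of the others. Every member passed the filter on dim probes, and the probe used for each was well above background on all 35 arrays.

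Female Sprague Dawley rats, 12 weeks old when dosing began, received 1 instillation into the trachea per week for 4 weeks. They were wild type (WT) or carried the genotype labelled GMO [heterozygous for p53], here p53het; the labels do not describe that allele further. The 6 groups were vehicle (Pluronic), Mitsui-7 and NM-403 in each genotype, with 6 rats per group and 5 in p53het NM-403, and the accessory lobe of the lung was taken 3 days after exposure. Both nanotubes, which are multi-walled carbon nanotubes, were given at 0.25 mg/rat, and it is unclear from the labels if this is the amount per week or the sum. A value below is the log2 intensity of a probe minus the 75th percentile of its array, so 0 marks the array's own 75th percentile and negative values are dimmer than it.

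Glucocorticoids act by binding the glucocorticoid receptor, a transcription factor that waits in the cytoplasm in a complex with heat shock protein chaperones. The bound receptor enters the nucleus, where it raises some genes by binding DNA at palindromic elements and restrains inflammatory genes, in part by interfering with NF-kB and AP-1. In the lung these hormones drive maturation of the alveolar epithelium, act on ion transport and limit inflammation, and several of the receptor's targets feed back on its own signalling.

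Of the 7 genes, 6 had 1 or more entries among the RefSeq promoters of build GRCr8, 11 entries in all. The 250 bases before the start site were searched on both strands for the half-site AGAACA (reverse complement TGTTCT), for the full palindrome of 2 half-sites with 3 bases between them (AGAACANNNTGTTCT, which contains the half-site) and for the cAMP response element TGACGTCA. Among 33469 rat promoters of the same length the half-site stood in 17.5%, the full palindrome in 0.012% and the cAMP response element in 1.59%. The promoters of Fam107a, Fkbp5 and Dusp1 are printed 5' to 3' on the strand of the gene, with a match in capitals, because Fam107a and Fkbp5 varied in opposite directions between rats and Dusp1 had the only cAMP response element. Fam107a lies at chr15:19046331-19046580 on the plus strand, Fkbp5 at chr20:6543556-6543805 on the minus strand and Dusp1 at chr10:17184603-17184852 on the plus strand, and all 3 windows are the sequence just before an annotated start.
Fam107a: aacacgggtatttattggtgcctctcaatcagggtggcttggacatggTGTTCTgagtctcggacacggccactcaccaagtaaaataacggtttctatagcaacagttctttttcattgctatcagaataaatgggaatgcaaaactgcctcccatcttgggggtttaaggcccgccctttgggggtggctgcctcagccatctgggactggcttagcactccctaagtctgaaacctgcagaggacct
Fkbp5: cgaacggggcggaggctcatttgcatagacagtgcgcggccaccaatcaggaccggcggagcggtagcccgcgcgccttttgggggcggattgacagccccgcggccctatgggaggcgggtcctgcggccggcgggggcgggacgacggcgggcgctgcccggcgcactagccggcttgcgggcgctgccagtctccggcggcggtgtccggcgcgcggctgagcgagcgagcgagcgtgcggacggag
Dusp1: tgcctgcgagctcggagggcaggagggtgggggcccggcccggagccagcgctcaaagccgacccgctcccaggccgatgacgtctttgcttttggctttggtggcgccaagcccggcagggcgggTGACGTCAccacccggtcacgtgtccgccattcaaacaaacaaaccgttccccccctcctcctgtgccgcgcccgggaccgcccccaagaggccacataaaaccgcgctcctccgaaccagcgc
The Fam107a window held 1 half-site, TGTTCT, from 202 to 197 bases before the start. The Fkbp5 window held none of the motifs and had a GC content of 76%, against a median of 51.2% over all promoters and 50% in Fam107a. The Dusp1 window held the cAMP response element from 124 to 117 bases before the start. No window of Tsc22d3, Sgk1 or Nr3c1 held any of the 3 motifs, which says only that these letters are not in these windows.

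The array reads a gene through a probe, and 2 of the 11 are printed as the files give them, in lower case because no base is singled out. The first is the dimmest probe of Zbtb16, whose values check the other probes of that gene, and the second is the only probe of Dusp1.
Zbtb16 probe: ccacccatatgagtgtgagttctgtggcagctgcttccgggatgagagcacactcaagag
Dusp1 probe: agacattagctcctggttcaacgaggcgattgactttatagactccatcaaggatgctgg
Both are 60 bases long and hold at least 1 reading frame without a stop.

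Each array carried 58717 non-control spots, of which 66.1% to 86.4% were well above background, with none saturated. Rats of every group were hybridised on at least 4 of the 5 slides, and the mean correlation of residuals was 0.239 for 99 array pairs within a slide and -0.056 for 411 pairs across slides. Markers of alveolar type 2 cells were above background on all 35 arrays for 7 of 7 genes, and 5 of 8 cardiac muscle markers were too. The data are bulk tissue, so fewer cells of a type and less RNA per cell cannot be told apart.

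**Figure D1:**
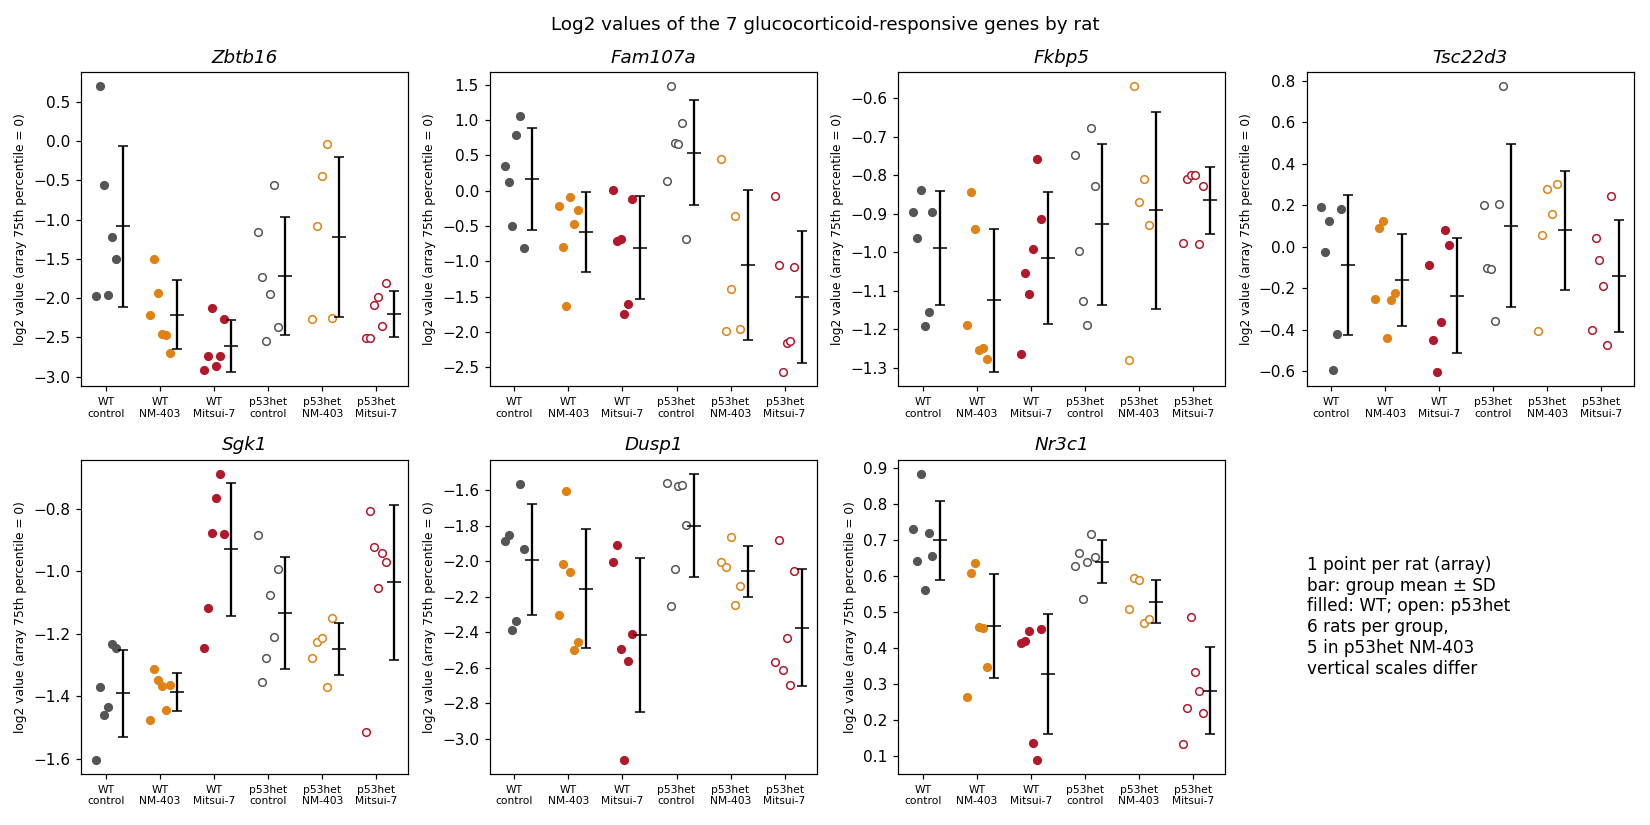
Log2 value of each of the 7 genes (vertical axis, array 75th percentile at 0, a different scale in each panel) in every rat, by group; bars are group means ± SD over 6 rats, or 5 in p53het NM-403. All 6 WT Mitsui-7 rats lie below all 6 WT controls for Zbtb16 and Nr3c1, and the p53het NM-403 rats spread from -2.26 to -0.04 for Zbtb16.

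The receptor gene itself was lower with Mitsui-7. Nr3c1 encodes the glucocorticoid receptor. Its values in WT controls ran from 0.56 through a median of 0.69 to 0.88, and in WT Mitsui-7 rats from 0.09 through 0.42 to 0.45. In p53het controls they ran from 0.54 through 0.65 to 0.72, and in p53het Mitsui-7 rats from 0.13 through 0.26 to 0.49. In both genotypes every Mitsui-7 rat was below every control; the groups did not overlap, in either direction, for 7.41% of all genes in WT and 4.96% in p53het. The difference was -0.37 ± 0.08 (SE, 6 against 6 rats) in WT and -0.36 ± 0.08 in p53het, about 1.29-fold and 1.28-fold lower. The spread between rats was small: the residual SD of Nr3c1 within groups was 0.119, and 3.1% of genes had a smaller one.

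In mean, though not rat by rat, NM-403 lay between control and Mitsui-7 for the probe of Nr3c1 used here. WT NM-403 rats ran from 0.26 through 0.46 to 0.64, and the 5 p53het NM-403 rats had 0.51, 0.59, 0.59, 0.47 and 0.48. Against control the difference was -0.24 ± 0.08 in WT (limma, adjusted p = 0.088; unadjusted p = 0.0043) and -0.11 ± 0.08 in p53het (adjusted p = 0.63), so neither passed the threshold of 0.05. With slide as a fixed block the WT difference was -0.23 with an adjusted p of 0.024, past the threshold. Mitsui-7 against NM-403 differed by -0.13 ± 0.08 in WT (adjusted p = 0.48) and -0.25 ± 0.08 in p53het (unadjusted p = 0.0044, adjusted p = 0.15). In order of group mean, Nr3c1 fell from WT control through p53het control, p53het NM-403, WT NM-403 and WT Mitsui-7 to p53het Mitsui-7, and of the 5 neighbouring pairs only p53het control and p53het NM-403 were farther apart than the larger SD of the pair.

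The other probes of Nr3c1 had the same sign in all 4 comparisons with control but not the same size. The dimmer probes gave -0.21 and -0.28 for Mitsui-7 in WT and -0.36 and -0.23 in p53het. For NM-403 they gave -0.25 and -0.48 in WT, and -0.42 and a value near 0 in p53het. When the gene was represented by the median over its 3 probes, the Mitsui-7 difference was -0.21 in WT and -0.36 in p53het, and Nr3c1 was called in neither. The differences between Mitsui-7 and NM-403 then turned sign, to 0.05 in WT and 0.07 in p53het.

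Fkbp5 encodes a co-chaperone that sits in the receptor complex and lowers its affinity for hormone, and it is a classic reporter of receptor activity. It passed the test in no comparison. WT controls ran from -1.19 through -0.93 to -0.84, WT NM-403 rats from -1.28 through -1.22 to -0.84 and WT Mitsui-7 rats from -1.26 through -1.02 to -0.76. The p53het controls ran from -1.19 through -0.91 to -0.68, p53het Mitsui-7 rats from -0.98 through -0.82 to -0.80, and the 5 p53het NM-403 rats had -1.28, -0.57, -0.87, -0.81 and -0.93. All 6 groups overlapped. The NM-403 differences were -0.14 (95% interval -0.36 to 0.08, adjusted p = 0.65 by limma) in WT and 0.04 (-0.20 to 0.27, adjusted p = 0.93) in p53het, and the Mitsui-7 differences were -0.03 ± 0.11 and 0.06 ± 0.11. In order of group mean Fkbp5 ran from p53het Mitsui-7 through p53het NM-403, p53het control, WT control and WT Mitsui-7 to WT NM-403.

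Tsc22d3, which encodes the leucine zipper protein GILZ that restrains NF-kB and AP-1, also overlapped between all groups. Controls ran from -0.60 through 0.05 to 0.19 in WT and from -0.36 through 0.05 to 0.77 in p53het. WT Mitsui-7 rats ran from -0.60 through -0.23 to 0.08, and p53het Mitsui-7 rats from -0.48 through -0.13 to 0.24. WT NM-403 rats ran from -0.44 through -0.24 to 0.13, and p53het NM-403 rats had -0.41, 0.06, 0.28, 0.16 and 0.30. The differences from control were -0.15 ± 0.17 and -0.24 ± 0.17 for Mitsui-7 in WT and p53het, and -0.07 ± 0.17 (adjusted p = 0.91) and -0.02 ± 0.18 (adjusted p = 0.98) for NM-403. The order of its group means was p53het control, p53het NM-403, WT control, p53het Mitsui-7, WT NM-403 and WT Mitsui-7, from high to low. For Fkbp5 and Tsc22d3 no neighbouring pair of group means was farther apart than the larger SD of the pair.

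Zbtb16 encodes a zinc finger transcription factor, also called PLZF, that is strongly raised by glucocorticoids in many tissues and is needed by innate-like lymphocytes. Its control groups were wide, with an SD of 1.02 in WT and 0.75 in p53het. WT controls had a lowest value of -1.98, a median of -1.36 and a highest of 0.70, and p53het controls ran from -2.55 through -1.85 to -0.56. WT Mitsui-7 rats were low and close together, from -2.92 through -2.74 to -2.12, and p53het Mitsui-7 rats ran from -2.51 through -2.22 to -1.81. The WT groups did not overlap (nor did those of 7.41% of genes); the p53het groups did. The Mitsui-7 difference was -1.52 ± 0.39 in WT, 2.87-fold lower, and -0.49 ± 0.39 in p53het, where the control mean was -1.72 against -1.09 in WT. Without WT control replicate 2, the rat at 0.70, the WT difference was -1.17. Without p53het control replicate 5 the p53het difference was -0.26.

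With NM-403 the sign of the Zbtb16 difference was not the same in the 2 genotypes, and neither difference passed the test. WT NM-403 rats ran from -2.70 through -2.34 to -1.5, below the WT control median in every rat, and the difference was -1.13 ± 0.39 (unadjusted p = 0.0071, adjusted p = 0.12 by limma). Without WT control replicate 2 the WT difference was -0.77. The 5 p53het NM-403 rats had -2.26, -1.09, -0.44, -0.04 and -2.25, split between low and high values, with a difference of 0.50 ± 0.41 (adjusted p = 0.68). The interaction of genotype with NM-403 was 1.63 ± 0.57 (95% interval 0.48 to 2.79, unadjusted p = 0.0071), and its adjusted p over all genes was 0.98, so it was not called. The interaction was 1.27 without WT control replicate 2. Between p53het and WT rats given NM-403 the difference was 1.00 ± 0.41 (adjusted p = 0.74). The p53het and WT controls differed by -0.64 ± 0.39 (adjusted p = 1), and by -0.28 without WT control replicate 2.

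The other probes of Zbtb16 gave the same signs. For Mitsui-7 in WT they were -1.27 and -1.04, and in p53het -0.60 and -0.61. For NM-403 in WT they were -1.10 and -0.94, and in p53het 0.35 and 0.24. The second value of each pair is from the probe printed above, which was above background on 34 arrays and had a mean level of -6.10. Within slides, the Mitsui-7 difference of Zbtb16 in WT ran from -2.26 to -0.76 and was negative on 4 of 4 slides that held both groups; in p53het it ran from -1.94 to 0.19 and was negative on 4 of 5.

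**Figure D2:**
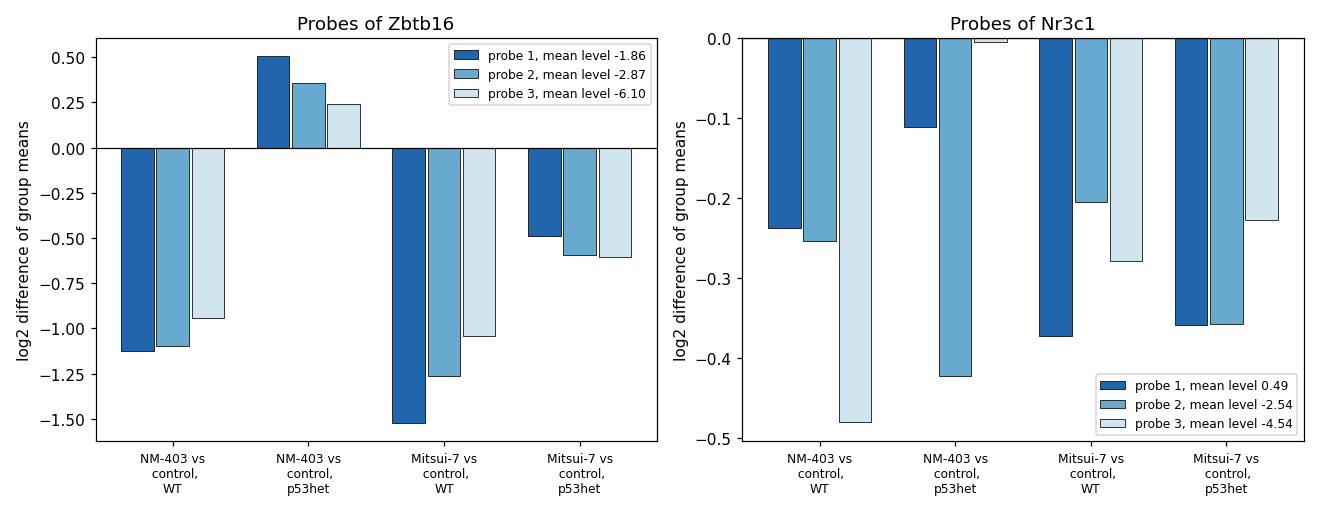
Difference of group means (vertical axis, log2) for each of the 3 probes of Zbtb16 (left) and Nr3c1 (right) in the 4 comparisons with control; the legend gives the mean level of each probe over 35 arrays, and bars start at 0. The probes of Zbtb16 had the same sign in each comparison, while those of Nr3c1 were all at or below 0 and ranged from near 0 to -0.48.

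Fam107a, also called DRR1, encodes an actin-binding protein induced by stress and glucocorticoids, best known from the brain. Its groups were wide. WT controls ran from -0.81 through 0.23 to 1.06, and p53het controls from -0.69 through 0.67 to 1.48. WT Mitsui-7 rats ran from -1.75 through -0.69 to 0.01 and p53het Mitsui-7 rats from -2.57 through -1.61 to -0.08, so the groups overlapped in both genotypes. The Mitsui-7 difference was -2.05 ± 0.45 in p53het, 4.14-fold lower, and -0.98 ± 0.45 in WT, 1.97-fold lower.

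With NM-403 the differences of Fam107a had the same sign as with Mitsui-7. WT NM-403 rats ran from -1.63 through -0.38 to -0.09 and the difference was -0.75 ± 0.45 (adjusted p = 0.47 by limma). The p53het NM-403 rats had 0.45, -1.99, -1.39, -0.36 and -1.95, and the difference was -1.59 ± 0.47 (unadjusted p = 0.0019, adjusted p = 0.086). Slide as a fixed block brought this p53het difference past the threshold (adjusted p = 0.017), with a value of -1.54. The interaction of genotype with NM-403 was -0.84 ± 0.65 (adjusted p = 0.98).

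Repeat spots of Fam107a lay closer together than rats did. Its single probe was printed on 10 spots per array, whose SD within an array averaged 0.095, against a residual SD between rats of 0.801. That residual SD was larger than those of 91% of genes, and Zbtb16, at 0.699, was above 86.9%. Slide moved with Fam107a, whose values on slide 1 all lay below their group means. WT Mitsui-7 had 0 arrays on slide 1, p53het control and p53het NM-403 had 2 each, and the other groups had 1 each. The group means of Fam107a, their order and the contrast between genotypes are therefore not balanced for slide. Within slides the Mitsui-7 difference ran from -2.54 to -0.05 in WT (negative on 4 of 4 slides) and from -3.64 to -1.24 in p53het (negative on 5 of 5). In order of group mean Fam107a fell from p53het control through WT control, WT NM-403, WT Mitsui-7 and p53het NM-403 to p53het Mitsui-7, and of the neighbours WT control and WT NM-403 were farther apart than the larger SD of the pair. Zbtb16 fell from WT control through p53het NM-403, p53het control, p53het Mitsui-7 and WT NM-403 to WT Mitsui-7, and no neighbours were.

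Markers of other cells moved in the same comparisons as Zbtb16 and Fam107a. Over all genes, 5.56% were called lower with Mitsui-7 in WT and 6.28% in p53het, and 8.41% and 5.29% higher. Of 12 endothelial markers, 8 were called lower with Mitsui-7 in WT and 8 in p53het, and none with NM-403. Their summed level ran from 5.63 to 5.87 in WT controls, 4.71 to 5.36 in WT Mitsui-7, 5.29 to 5.66 in WT NM-403, 5.68 to 5.90 in p53het controls, 4.92 to 5.43 in p53het Mitsui-7 and 5.45 to 5.61 in p53het NM-403. Of 8 cardiac muscle markers, 4 were lower in WT and 5 in p53het with Mitsui-7, and their summed level ran from 3.97 to 4.22 in WT controls, 2.77 to 3.62 in WT Mitsui-7, 3.21 to 4.28 in WT NM-403, 3.52 to 4.28 in p53het controls, 2.74 to 3.62 in p53het Mitsui-7 and 3.20 to 4.15 in p53het NM-403. Of 8 macrophage and monocyte markers measured, 5 were higher in WT and 4 in p53het with Mitsui-7. Of 7 alveolar type 1 markers, 4 were lower in each genotype with Mitsui-7, and 1 in WT and 2 in p53het with NM-403; their summed level ran from 7.22 to 7.40 in WT controls, 6.98 to 7.12 in WT Mitsui-7, 6.95 to 7.21 in WT NM-403, 7.15 to 7.65 in p53het controls, 6.96 to 7.18 in p53het Mitsui-7 and 6.99 to 7.29 in p53het NM-403. Of 6 erythroid markers 4 were lower with Mitsui-7 in WT and 1 in p53het, of 6 ciliated cell markers 4 and 3 were higher, and of 6 mast cell markers 3 and 4 were higher and 1 was lower in each genotype. T cell and innate-like T cell markers, 9 in all, gave 1 higher call and 0 lower with Mitsui-7 in WT, and 1 of each in p53het. Of 5 mesothelial markers, 3 were lower and 1 higher with Mitsui-7 in WT, and 1 of each in p53het. With NM-403, 4 mesothelial markers were lower in WT and 1 in p53het. Of 8 fibroblast markers, 3 were higher and 2 lower with Mitsui-7 in WT, and 2 of each in p53het. Of 5 NK cell markers, 0 were lower with Mitsui-7 in WT and 2 in p53het. All 12 endothelial and all 9 T cell markers were above background on every array. The part of these cell types in the levels of the 7 genes was not tested.

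Sgk1, the serum- and glucocorticoid-regulated kinase, raises the activity of the epithelial sodium channel among other transporters. It was the member that was higher with Mitsui-7 in WT lungs. WT controls ran from -1.60 through -1.40 to -1.23 and WT Mitsui-7 rats from -1.25 through -0.88 to -0.69, a difference of 0.46 ± 0.10 or 1.38-fold, with 1 Mitsui-7 rat just under the highest control. The p53het controls were already higher, from -1.36 through -1.14 to -0.88, and p53het Mitsui-7 rats ran from -1.52 through -0.96 to -0.81, a difference of 0.10 ± 0.10. Leaving out 1 rat at a time moved that difference between 0.05 (without p53het Mitsui-7 replicate 2) and 0.19 (without replicate 1, the rat at -1.52).

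For NM-403 no difference from control was called. WT NM-403 rats were tightly grouped from -1.48 through -1.37 to -1.31, and the difference from control was 0.01 (95% interval -0.20 to 0.21; adjusted p = 0.99 by limma). The p53het NM-403 rats had -1.28, -1.23, -1.21, -1.37 and -1.15, a difference of -0.12 ± 0.11 (adjusted p = 0.73). Between the nanotubes in WT lungs, Sgk1 was 0.46 ± 0.10 higher with Mitsui-7 (adjusted p = 0.007), every Mitsui-7 rat being above every NM-403 rat (2.41% of genes did not overlap), and within slides the difference was positive on 4 of 4. With array median scaling it was 0.38 with an adjusted p of 0.06, no longer past the threshold. The mean of WT NM-403 was 0.01 from that of WT control, so the WT difference between nanotubes nearly repeats the one from control. Mitsui-7 arrays were in view when the members were chosen, so its p-value is a description and not an independent test. In p53het, Mitsui-7 against NM-403 differed by 0.21 ± 0.11 (adjusted p = 0.42). The interaction of genotype with Mitsui-7 was -0.36 ± 0.15 for Sgk1 (unadjusted p = 0.018, adjusted p = 1). The p53het and WT controls differed by 0.26 ± 0.10 (unadjusted p = 0.017, adjusted p = 1). In order of group mean Sgk1 fell from WT Mitsui-7 through p53het Mitsui-7, p53het control, p53het NM-403 and WT NM-403 to WT control, and of the neighbours only p53het NM-403 and WT NM-403 were farther apart than the larger SD of the pair.

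Dusp1 encodes a phosphatase that switches off MAP kinases, and it is raised both by glucocorticoids and, as an immediate early gene, by many stimuli. WT controls ran from -2.39 through -1.91 to -1.57 and p53het controls from -2.25 through -1.69 to -1.56. WT Mitsui-7 rats ran from -3.12 through -2.45 to -1.91 and p53het Mitsui-7 rats from -2.69 through -2.50 to -1.88, lower on the whole but overlapping. The differences were -0.42 ± 0.18 in WT and -0.57 ± 0.18 in p53het. The p53het difference was called in the main fit but in only 13 of 24 alternatives.

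NM-403 rats lay between control and Mitsui-7 rats in mean for Dusp1. WT NM-403 rats ran from -2.50 through -2.18 to -1.60, and p53het NM-403 rats had -2.01, -2.03, -1.87, -2.24 and -2.14. The differences from control were -0.16 ± 0.18 (adjusted p = 0.78) in WT and -0.26 ± 0.19 (adjusted p = 0.65 by limma) in p53het. Mitsui-7 against NM-403 differed by -0.26 ± 0.18 (adjusted p = 0.61) in WT and -0.32 ± 0.19 (adjusted p = 0.52) in p53het. The order of group means of Dusp1 was p53het control, WT control, p53het NM-403, WT NM-403, p53het Mitsui-7 and WT Mitsui-7, from high to low, and no neighbouring pair was farther apart than the larger SD of the pair.

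**Figure D3:**
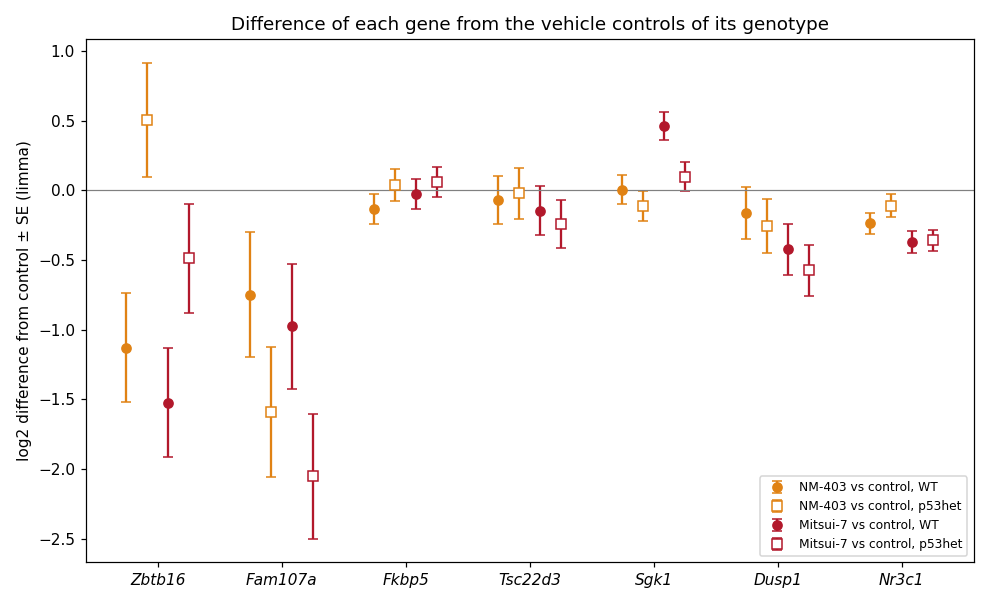
Difference of each gene from the vehicle controls of its genotype (vertical axis, log2, ± SE from limma); circles are WT, squares p53het, orange NM-403 and red Mitsui-7. Zbtb16 and Fam107a had the widest errors, 0.39 and 0.45 in WT, and Fkbp5 lay within 0.14 of 0 throughout.

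The members' calls can be set beside those of all genes. With Mitsui-7 against control, 3 of 7 members were called in WT (Zbtb16 and Nr3c1 lower, Sgk1 higher) where 14% of genes were, and 3 of 7 in p53het (Fam107a, Dusp1 and Nr3c1 lower) where 11.6% were; these arrays chose the members, so nothing is read from the counts. With NM-403, 0 of 7 were called in WT, where 3.2% of genes were, and 0 of 7 in p53het, where 1.52% were; at an unadjusted p under 0.05 limma gave 2 (Zbtb16 and Nr3c1) and 1 (Fam107a). Of the 5 members other than Zbtb16 and Fam107a, Mitsui-7 against NM-403 called 1, Sgk1, in WT, where 3.32% of genes were called, and 0 in p53het, where 1.36% were; at an unadjusted p under 0.05 there were 1 (Sgk1) and 1 (Nr3c1). The contrasts of p53het with WT controls and of p53het with WT under NM-403, and the interaction of genotype with NM-403, called 0 of 7 members and 0% of genes; at an unadjusted p under 0.05 they gave 1, 2 and 1 members and 484, 1039 and 413 genes. The interaction with Mitsui-7 called 0 of those 5 members and 0% of genes, with 1 (Sgk1) and 730 at an unadjusted p under 0.05. The counts between nanotubes and for the Mitsui-7 interaction also used the Mitsui-7 arrays, so nothing is read from them either.

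Zbtb16 and Fam107a differed in which genotype showed the larger Mitsui-7 value, but no p-value is given for that difference because the Mitsui-7 arrays chose them; the values were 1.04 ± 0.55 and -1.07 ± 0.63 for p53het minus WT. Both nanotubes were compared with the same control rats, so their differences from control are not independent.

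The genes were next compared rat by rat, after subtracting group means, which the choice of members did not use. Over 35 rats, 5 of 21 pairs of members correlated with a p under 0.05 adjusted over the 21 pairs (permutation test within groups, 100000 resamples, two-sided). Fkbp5 and Tsc22d3 rose and fell together: Pearson's r was 0.69 (permutation p = 3e-05, adjusted 0.00063) and Spearman's rho 0.75 (permutation p = 1e-05, the smallest possible, adjusted 0.00021). The correlation was positive in all 6 groups, was 0.71 without the 2 rats farthest from the median and 0.52 (adjusted permutation p = 0.034) with slide means removed. For each pair the 2 rats left out were those farthest from the median residual of the gene named first. Zbtb16 also went with Fkbp5 (r = 0.51, permutation p = 0.0073, adjusted 0.031; rho = 0.52, p = 0.0047, adjusted 0.025), positive in 6 of 6 groups, 0.57 without 2 rats and 0.49 with slide means removed.

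Fam107a ran against 3 other members. With Fkbp5 its r was -0.57 (permutation p = 0.00077, adjusted 0.0081) and rho -0.53 (p = 0.0021, adjusted 0.022), negative in 6 of 6 groups and -0.50 without 2 rats. With slide means removed that r was -0.39 and its adjusted permutation p 0.18. With Sgk1 the r was -0.55 (permutation p = 0.0016, adjusted 0.011) and rho -0.51 (p = 0.0034, adjusted 0.024), negative in 6 of 6 groups, -0.56 without 2 rats and -0.53 (adjusted p = 0.043) with slide means removed. With Tsc22d3 the r was -0.49 (permutation p = 0.0068, adjusted 0.031) and rho -0.42 (p = 0.02, adjusted 0.082), negative in 4 of 6 groups. That r was -0.34 (adjusted permutation p = 0.22) without 2 rats and -0.27 (adjusted permutation p = 0.60) with slide means removed, past the threshold in neither. A further 2 pairs passed under some alternatives and not in the main values: Zbtb16 with Nr3c1 (r = 0.31, adjusted permutation p = 0.12; 0.48 with 0.0059 without 2 rats, 0.37 with 0.037 in the authors' values) and Fkbp5 with Sgk1 (r = 0.33, adjusted permutation p = 0.12; 0.40 with 0.043 after quantile normalization, 0.41 with 0.031 in the authors' values).

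Array brightness, taken as the 75th percentile of each array, moved with the same residuals. It correlated with Fkbp5 (r = 0.51, permutation p = 0.004, adjusted over 7 genes 0.014), Nr3c1 (r = 0.49, p = 0.0031, adjusted 0.014) and Fam107a (r = -0.45, permutation p = 0.0099, adjusted 0.023); rho was 0.53, 0.44 and -0.46. For each gene the 2 arrays farthest from the median in that gene's own residual, not in brightness, were then left out. These r were then 0.43 (adjusted permutation p = 0.064, no longer past the threshold), 0.45 (0.045) and -0.48 (0.028). With slide means removed they were 0.36, 0.29 and -0.05, and then Zbtb16 had the highest (r = 0.48, permutation p = 0.0028, adjusted 0.02). The part of brightness in the correlations between members was not tested.

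**Figure D4:**
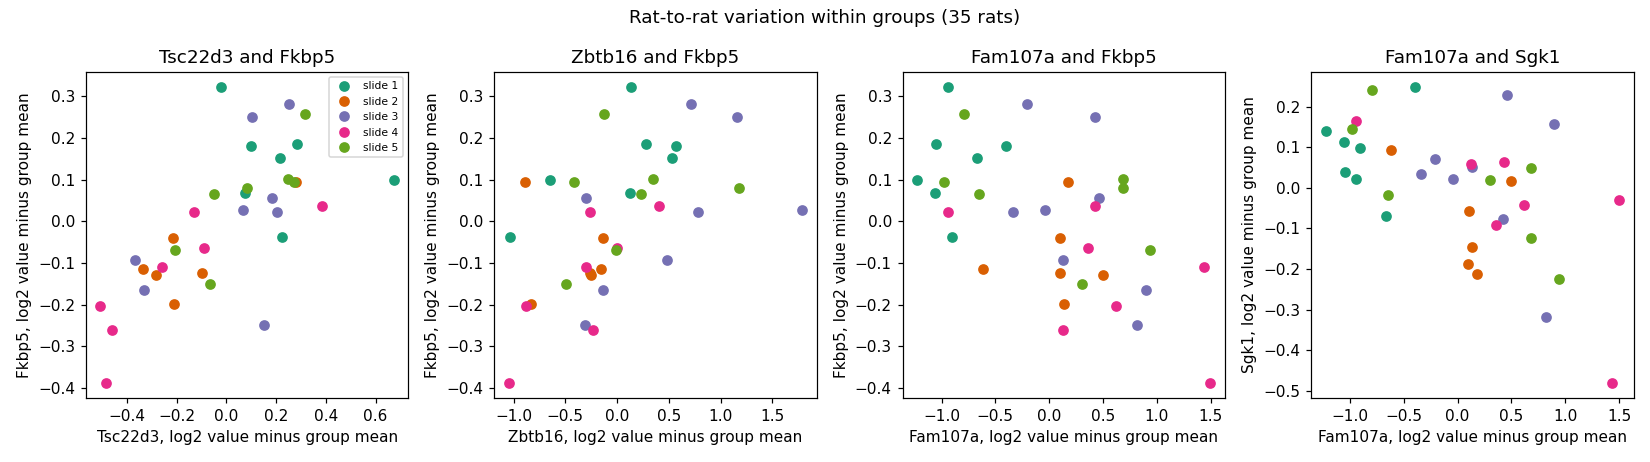
Log2 value minus group mean of pairs of members in 35 rats, coloured by slide; each point is 1 rat. Fkbp5 rises with Tsc22d3 (r = 0.69) and Zbtb16 (r = 0.51), and Fam107a runs against Fkbp5 (r = -0.57) and Sgk1 (r = -0.55), with rats of slide 1 on the low side of Fam107a.

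As a description, the genes whose residuals were most like those of each member were listed among 14653 genes with a symbol, over 35 rats that share slides and array brightness. For Zbtb16 they were Zhx3 (r = 0.76), Edem1 (0.62) and Baiap2 (0.58). For Fam107a they were Zfp606 (r = 0.83), Stox2 (0.82) and Col4a1 (0.81), the last a chain of basement membrane collagen. Fkbp5 was most like Oaf (r = 0.79), Nepro (0.79) and Amz1 (0.77), and Tsc22d3 most like Gpr132 (0.84), Spef1 (0.83) and Rgs16 (0.82). Sgk1 was most like Ptprc (r = 0.71), which encodes the leukocyte antigen CD45, Slc2a6 (0.70) and Ltn1 (0.68). Dusp1 was most like Fam222b (r = 0.70), Klf2 (0.68), a transcription factor of endothelium and lymphocytes, and Adamts1 (0.68). Nr3c1 was most like Cul9 (r = 0.82), Phf21a (0.81) and Abcc9 (0.81). No member was among the 3 nearest genes of another.

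Other genes of the pathway were followed as lists, described by their counts. The lists were chosen with earlier results of these data known, and the genes named are mostly those with the largest called changes. Their p-values are therefore descriptions and not independent support. The shares of all genes called with Mitsui-7 stand above. For NM-403 the shares called higher and lower were 2.3% and 0.903% in WT, and 1.27% and 0.253% in p53het. That balance shifted with the scaling. With Mitsui-7 in WT, higher calls were 60.2% of calls, against 44.3% after quantile normalization, 43.2% with array medians and 36.9% in the authors' values. For NM-403 in p53het they were 83.4% against 67.5% with normexp background correction, and for Mitsui-7 against NM-403 in WT 83.4% against 70.0%, 66.4% and 62.9% with quantile normalization, array medians and the authors' values.

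Of 25 measured genes that glucocorticoids raise elsewhere, 1 was higher and 4 were lower with Mitsui-7 in WT, and 2 and 5 in p53het; the list median was 0.03 and -0.23, against 0.03 and -0.02 over all genes. Klf9 and Klf15, Kruppel-like factors induced by the receptor, fell in both genotypes: Klf9 by 0.55 and 0.48, and Klf15 by 0.61 and 0.76 (log2, adjusted p from 0.0021 to 0.033 by limma). Scnn1a, the alpha subunit of the epithelial sodium channel, fell by 0.68 and 0.57 (adjusted p = 0.00038 and 0.0032), and Thbd, the endothelial anticoagulant thrombomodulin, by 0.67 and 0.56 (adjusted p = 0.0062 and 0.026). Cdkn1c, an inhibitor of cyclin-dependent kinases, fell by 0.47 in p53het (adjusted p = 0.0026). The metallothionein Mt2A rose by 0.60 ± 0.14 and 0.67 ± 0.14, and Angptl4, a secreted regulator of lipoprotein lipase, by 1.56 ± 0.34 in p53het (adjusted p = 0.0023).

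With NM-403, 2 genes of that list were called higher in WT and 1 in p53het. The list median was -0.05 and -0.24, against -0.002 and -0.08 over all genes. Il1r2, the decoy receptor of interleukin 1, rose 4.43-fold in WT (2.15 ± 0.28, adjusted p = 1.1e-05) and 3.33-fold in p53het (1.74 ± 0.29, adjusted p = 0.0006), and Mt2A rose by 0.78 ± 0.14 in WT. No member of the list was called lower with NM-403 (0 of 25 in each genotype by limma, 5 and 6 at an unadjusted p under 0.05). Neutrophil markers, of which 3 of 6 were higher with NM-403 in WT and 1 of 6 in p53het, had a summed level of 3.10 to 4.52 in WT NM-403 and 3.11 to 4.23 in p53het NM-403, against 1.42 to 2.95 and 1.79 to 2.79 in the controls and 0.68 to 2.00 and 1.31 to 2.74 with Mitsui-7. The part of neutrophils, which express Il1r2, in these values was not tested.

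Of 14 measured inflammatory genes that the receptor restrains, 6 were higher and 3 lower with Mitsui-7 in WT, and 5 and 0 in p53het. The T cell chemokine Cxcl10 rose 12.8-fold (3.67 ± 0.30) and 6.69-fold (2.74 ± 0.30), the monocyte chemokine Ccl2 3.55-fold and 5.23-fold, and the protease gene Mmp9 7.28-fold and 2.69-fold, with adjusted p of 0.0047 or below by limma. Mmp9 was above background in 4 of 6 controls of each genotype and in all 12 Mitsui-7 rats. The folds of Mmp9 therefore rest in part on control values not above background, and their size is uncertain. Nos2, the inducible nitric oxide synthase, was called higher in WT, but it was above background in 1 of 6 controls and 5 of 6 Mitsui-7 rats, so no size is given. Sele, an endothelial adhesion receptor, and Ptgs2, the inducible prostaglandin synthase, rose in both genotypes. The neutrophil chemokine Cxcl1 fell by 0.77 in WT (adjusted p = 0.044), Icam1, an adhesion receptor, by 0.34 and Csf2, a growth factor of granulocytes and macrophages, by 0.32. With NM-403 the one gene called was Ccl2, 3.07-fold higher in WT and 4.04-fold in p53het.

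Few genes of the machinery around the receptor were called. Of 15 genes, which were chaperones, coregulators and the mineralocorticoid receptor Nr3c2, 0 were called higher and 1 lower with Mitsui-7 in each genotype. The coactivator Ncoa3 fell by 0.30 in WT (adjusted p = 0.038 by limma) and Nr3c2 by 0.52 in p53het (adjusted p = 0.026). Called or not, 12 of 15 were lower with Mitsui-7 in WT and 15 in p53het. The list medians were -0.15 and -0.15, against 0.03 and -0.02 over all genes. NM-403 called 0 of 15 in each genotype by limma, with 3 and 1 at an unadjusted p under 0.05. Called or not, 15 of 15 were lower with NM-403 in WT and 14 in p53het, so the direction was shared by both nanotubes. The NM-403 medians were -0.10 and -0.11, against -0.002 and -0.08 over all genes. Of 5 measured genes of corticosteroid metabolism and transport, the efflux pump Abcb1b fell by 0.75 with Mitsui-7 in WT (adjusted p = 0.024), Hsd11b2, which inactivates the hormone, fell by 0.59 with Mitsui-7 in p53het (adjusted p = 0.019), and the steroid reductase Srd5a1 rose by 0.79 with NM-403 in WT (adjusted p = 0.013).

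Among 17 paralogs of the members, Dusp2, a phosphatase of activated leukocytes, rose by 0.94 and 0.78 with Mitsui-7 in WT and p53het and by 0.76 with NM-403 in WT, the opposite sign to Dusp1. Zbtb20, a relative of Zbtb16, fell by 0.59 and 0.50 with Mitsui-7, and Dusp8 and Nr3c2 fell by 0.66 and 0.52 in p53het. Nr3c2 is the gene already counted with the chaperones and coregulators. Of 21 immediate early genes, which share with Dusp1 the rapid response to stimuli, 3 were higher and 0 lower with Mitsui-7 in WT and 3 and 2 in p53het. Fosl1 was called higher in both genotypes; it was above background in 4 of 6 WT controls, 2 of 6 p53het controls and all 12 Mitsui-7 rats, so no size is given. Egr2 rose by 1.04 and 0.82, Atf3 by 0.77 in WT and Fosl2 by 0.43 in p53het. Jun and Klf4 fell by 0.40 and 0.57 in p53het, and Myc rose by 0.42 with NM-403 in WT.

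Clock genes were included because several of them respond to glucocorticoids and the labels give no hour of sampling. Of 15 measured, 2 were called higher and 0 lower with Mitsui-7 in each genotype. Those called were Bhlhe40, by 0.69 and 0.71, and Bhlhe41, by 1.05 and 0.90 (adjusted p of 0.00085 or below by limma), a pair of repressors that also act outside the clock. Called or not, 10 of 15 were lower in WT and 12 in p53het. The list medians were -0.14 and -0.32, against 0.03 and -0.02 over all genes. At an unadjusted p under 0.05 limma gave 1 and 3 lower, and 2 and 2 higher. NM-403 called 0 of 15 in each genotype (limma; 3 and 3 at an unadjusted p under 0.05).

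**Figure D5:**
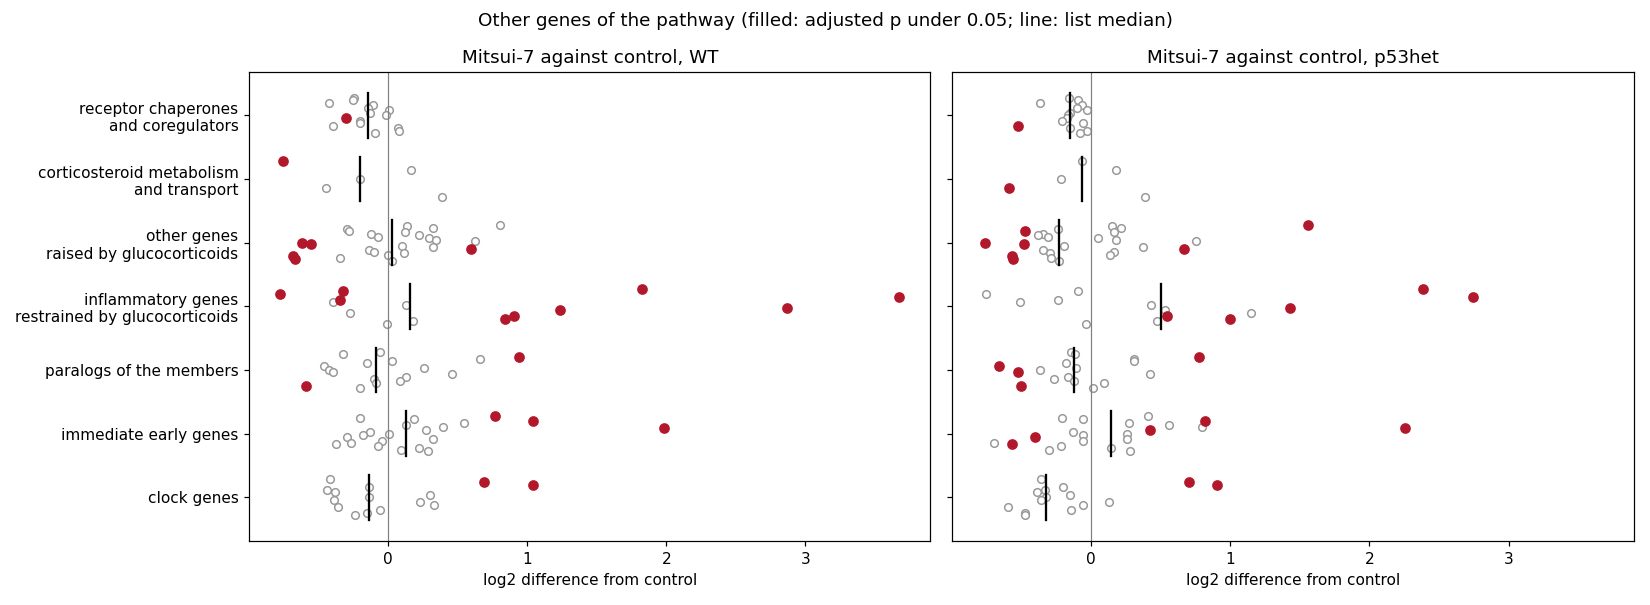
Log2 difference from control (horizontal axis) of each measured gene of 7 lists with Mitsui-7 in WT (left) and p53het (right); filled points have an adjusted p under 0.05, the vertical stroke is the list median, and the height within a list only separates points. The inflammatory genes reach furthest to the right, with Cxcl10 at 3.67 and 2.74, while most genes of the other lists lie within 1 of 0.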

How the data were processed

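RNA from 35 rat lungs (RIN above 6.90, 100 ng) was hybridised to 1-colour Agilent arrays. Per the file headers and the submitters' processing notes, the authors' deposited intensity values are background-subtracted spot signals from Agilent Feature Extraction 12.0.1.1, not normalized between arrays. The authors also deposited log2 values centred on each probe's median over arrays (scale and centring read from the data; direction unstated, taken from the scanner values), used as an alternative. Here log2 intensity minus the array's 75th percentile was used, spots of a probe were averaged and the brightest probe represented a gene. Control spots, outlier spots and probes well above background on fewer than 5 of the 35 arrays or measured on fewer than 3 arrays of a group were left out, leaving 24473 genes; 150 values were missing. Differences were fitted with limma 3.58.1 (R 4.3.3; lmFit and eBayes over all 6 groups, two-sided, Benjamini-Hochberg over all genes, threshold 0.05), tested on simulated data. The replicate is the rat. The main fit and the permutations did not model slide, so their p-values rest on a spread that mixes rats and slides. With slide as a random block, the correlation within a slide was 0.35.

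The members and lists were chosen with earlier results of these data known. Named genes were the 7 members, up to 4 called genes of each list and comparison with the largest change, genes that a count of 5 or fewer is about, and the 3 genes most like each member. Alternatives covered scaling, background correction, the filter, slide, array weights, the replicate number as a block, the probe rule and leaving out each array. Rats of different groups with the same replicate number were not alike (mean correlation 0.030 over 85 pairs), so the numbers do not pair the rats.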

Additional observations from a re-analysis of the deposited data

Results flagged for a closer look

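One value of the members lay apart from its group. Sgk1 in p53het Mitsui-7 replicate 1 was -1.52, the lowest of its 6 rats, and the nearest was -1.05. Its gap to the nearest took 0.652 of the group's range. In all, 42 groups of a gene were tested, and chance alone gives such a value in about 1 in 20 groups.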

How the results depend on the processing

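No called difference of a member changed sign under any alternative run; 47 values of differences not called did, and of these the 3 whose main size was over 0.1 were of Nr3c1 with the median over its probes (0.05 and 0.07 for Mitsui-7 against NM-403 in WT and p53het, and -0.17 for the interaction with NM-403). Every difference of a member called in the main fit used Mitsui-7 arrays, which were in view when the members were chosen. Signs and calls that held therefore describe the processing only and are not independent support. With array median scaling, Mitsui-7 against NM-403 in WT gave 0 members instead of 1 (Sgk1). The Dusp1 call for Mitsui-7 in p53het held in 13 of 24 alternatives. It was lost with array median scaling, normexp background correction, no filter on dim probes and only the groups compared, among others. For NM-403 against control in WT, normexp background correction, slide as a fixed block, slide as a random block and array weights each gave 1 member, Nr3c1, instead of 0. For NM-403 against control in p53het, slide as a fixed block, slide as a random block and array weights each gave 1, Fam107a. Leaving out 1 rat at a time gave 0 to 1 in each of these NM-403 comparisons: 1 without WT NM-403 replicate 3 (Nr3c1), and 1 without p53het control replicate 6 or without p53het NM-403 replicate 1 (Fam107a). With slide means removed, 3 pairs instead of 5 correlated (6 with quantile normalization, 7 in the authors' values) and 1 gene instead of 3 went with brightness. The cause was not tested. With the replicate number as a block, the counts were 3 and 3 for Mitsui-7, 0 and 0 for NM-403 and 1 and 0 between nanotubes, and no call of a member changed; 8 of 35 arrays were most like one of their own number. Of 840 log2 differences under alternatives other than leaving out a rat, 833 moved by less than the gene's residual SD within groups. The other 7 moved by more, all of Nr3c1 with the median over probes. Over all genes, slide as a fixed block gave 5432 and 5518 calls for Mitsui-7 (WT, p53het), 1893 and 960 for NM-403, and 1538 and 507 between nanotubes; slide as a random block gave 5421, 5144, 1902, 981, 1542 and 581. Array weights gave 5239 for Mitsui-7 in p53het, 1449 and 2393 for NM-403 and 937 between nanotubes in p53het. Normexp gave 1797 for Mitsui-7 in p53het, 191 for NM-403 in p53het and 443 between nanotubes in WT. The authors' values, with 9803 genes, gave 1744, 1408, 491, 163, 315 and 135. The main counts in that order were 3420, 2832, 784, 373, 813 and 334. With slide as a fixed block, slide as a random block or array weights, higher calls with NM-403 were 56.6%, 55.8% and 58.4% in WT against 71.8%, and 56.8%, 59.3% and 40.2% in p53het against 83.4%. Between nanotubes in WT they were 72.2% with slide as a fixed block. The number of rats limits the precision.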
